A study of Mus musculus with 4 samples.

Results

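The macrophages and monocytes of the preSC allografts were 509 cell barcodes of the 56220 barcodes that the 4 libraries of the study held. They were chosen by their own RNA. Barcodes of the 2 allograft libraries were kept where 300 or more genes were detected and where UMIs (unique molecular identifiers, each standing for 1 captured transcript) of mitochondrial genes were no more than 15% of the total. Among these a member had at least 3 UMIs of Lyz2, at least 1 UMI of Tyrobp and 0 UMIs of Cd3e, Cd79a and Col1a1. Lyz2 encodes lysozyme, Tyrobp a signalling adaptor of myeloid cells, and the 3 excluded genes mark T cells, B cells and fibroblasts. Members were then divided by the summed UMIs of C1qa, C1qb and C1qc, the chains of complement C1q, into C1q-high cells (3 or more) and C1q-zero cells (0).

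The library labelled preSC_CracdKO gave 63 members (0.390% of 16137 filtered barcodes, exact 95% interval 0.300 to 0.499%) and the library labelled preSC_WT gave 446 (2.41% of 18468, 2.20 to 2.65%). Both came from tumours grown in mice from preSC, a mouse cell line used as a model of early small cell lung cancer. The labels give its genotype as CracdKO or WT and give neither the strain, sex, age and number of the host mice nor the number of clones. The lung libraries CRPR2 and RPR2, from mouse small cell lung cancers whose genotypes the labels do not spell out, gave 423 and 204 cells under the same rule. Each group was 1 library. The spread between animals is therefore unknown, no test was made, and every interval below covers counting error alone.

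Macrophages are phagocytes that settle in tissues and tumours, where they clear dead cells, digest them in lysosomes and present peptides on MHC class II. Many derive from Ly6C-high monocytes, blood cells that carry the chemokine receptor Ccr2 and lose their monocyte transcripts as they mature. Complement C1q, the recognition unit of the classical complement pathway, is made largely by macrophages and little by monocytes, and Apoe, a lipid carrier, is another abundant product of tissue macrophages.

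The cell type name and the library labels were first held against the data. Of the 14 genes of a macrophage list, Csf1r, Cd68, Fcgr3 and the other members each had UMIs in the C1q-high cells of both allograft libraries. The list summed to 5443 CPM, the count scaled to a fixed total of UMIs and so comparable between sums of different depth, in 18 C1q-high cells labelled preSC_CracdKO and to 8130 CPM in 200 labelled preSC_WT. Apoe, which the rule did not use, stood at 18774.5 CPM in 16 of the 18 cells and at 28859.7 CPM in 193 of the 200, against 8.25 and 38.6 CPM in the tumour-marked barcodes of the same libraries. Tumour-marked barcodes were those with at least 10 UMIs of a 10-gene neuroendocrine list, no Tyrobp UMI and fewer than 3 Lyz2 UMIs. They were 13053 in preSC_CracdKO and 13078 in preSC_WT, with medians of 6670 and 5020.5 UMIs each. Barcodes with clear myeloid RNA were thus left out of them, so their low levels of macrophage genes here and below are partly set by this choice.

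Cracd itself, listed as C530008M17Rik, went against the library labels. In tumour-marked barcodes it stood at 88.7 CPM (86.8 to 90.5) in the library labelled preSC_CracdKO and at 6.16 CPM (5.63 to 6.72) in the library labelled preSC_WT. Counts taken near a transcript's end do not test whether its coding sequence was cut. Among the members Cracd had 3 UMIs in preSC_CracdKO and 2 UMIs in preSC_WT, at or under the 3 UMIs taken in place of a count of 0, so that no direction could be read there.

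A part of the members did not look like macrophages or monocytes. In the library labelled preSC_CracdKO, 24 of the 63 members held at least 10 UMIs of S100a8 and S100a9, the calprotectin subunits that neutrophils carry in bulk, against 1 of the 446 labelled preSC_WT. Summed, the 24 cells had 10461 CPM of S100a8 and 16155.9 CPM of S100a9, with 3132 CPM of G0s2, a further neutrophil transcript. Retnlg, another, stood at 1379 CPM, of which 1 cell gave 91.3%. The 24 cells were of unequal depth. In 5 of them, with more than 5000 UMIs each, lay 70.6% of the UMIs but 211 of the 1776 S100a8 and S100a9 UMIs, and these 5 were the ones that held tumour-marker RNA. The other 19, with 590 to 1813 UMIs, had 30864.2 CPM of S100a8 and 48974.6 CPM of S100a9. The neutrophil granule genes Camp and Ltf and the surface marker Ly6g were at 0 UMIs. These cells held no C1q and no H2-Aa UMIs, and Adgre1, which encodes the macrophage protein F4/80, stood at 60.0 CPM. They had a median of 1140 UMIs, against 3487 in the other 39 members of that library. They are called neutrophil-marked. The share of C1q-high cells and the gene counts between the allograft libraries are therefore also given without them below. The shares of members, the gene comparison with the lung tumours and the genes flagged for a closer look include them.

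Transcripts of the sex chromosomes separated the members from the tumour cells around them. Xist, which silences 1 X chromosome in females, had 0 UMIs in the members of both allograft libraries. The Y-linked gene Uty stood at 37.9 CPM in the 63 members labelled preSC_CracdKO and at 26.3 CPM in the 446 labelled preSC_WT. In tumour-marked barcodes Uty was at 0.0906 and 1.74 CPM, and Eif2s3y, likewise Y-linked, was at 34.1 and 44.1 CPM in members against 0.101 and 2.51 CPM in tumour-marked barcodes. The members of both libraries thus carried Y-linked RNA and no detected Xist RNA.

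Some barcodes lay near the edge of the Lyz2 rule, and the shares of members moved with its limit, as given further below. In preSC_CracdKO 6 filtered barcodes had 2 Lyz2 UMIs, just outside, and 6 members had 3. In preSC_WT the numbers were 69 and 25. The excluded genes removed 2 barcodes labelled preSC_CracdKO and 19 labelled preSC_WT. The allograft libraries shared 79 barcode sequences, and none of these was a member in both. At least 10 UMIs of the neuroendocrine list were present in 14 of the 63 members labelled preSC_CracdKO and in 65 of the 446 labelled preSC_WT.

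Few members lay between the C1q classes. C1q-high cells were 18 of 63 members (28.6%, 17.9 to 41.3%) in the library labelled preSC_CracdKO and 200 of 446 (44.8%, 40.2 to 49.6%) in the library labelled preSC_WT. Members with 1 or 2 C1q UMIs numbered 3 and 13, and 16 of the 18 and 180 of the 200 C1q-high cells held 10 or more. The 3 chains were found together in 17 of the 18 cells (94.4%) and in 189 of the 200 (94.5%). The median C1q-high cell held 45 C1q UMIs in preSC_CracdKO and 37.5 in preSC_WT, with maxima of 175 and 234.

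The share of C1q-high cells depended on the neutrophil-marked cells. Without them it was 46.2% (30.1 to 62.8%) of 39 members labelled preSC_CracdKO and 44.9% (40.3 to 49.7%) of 445 labelled preSC_WT, with overlapping intervals. In a further setting neutrophil-marked cells were kept, members under 1000 UMIs were left out and the others were thinned to 1000 UMIs. The shares were then 28.3% of 53 cells and 38.3% of 407. Of the members left out, 0 of 10 in preSC_CracdKO and 30 of 39 in preSC_WT were C1q-high, so the shares changed before any thinning. In tumour-marked barcodes the highest C1q sum was 1 UMI in preSC_CracdKO and 12 in preSC_WT.

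**Figure D1:**
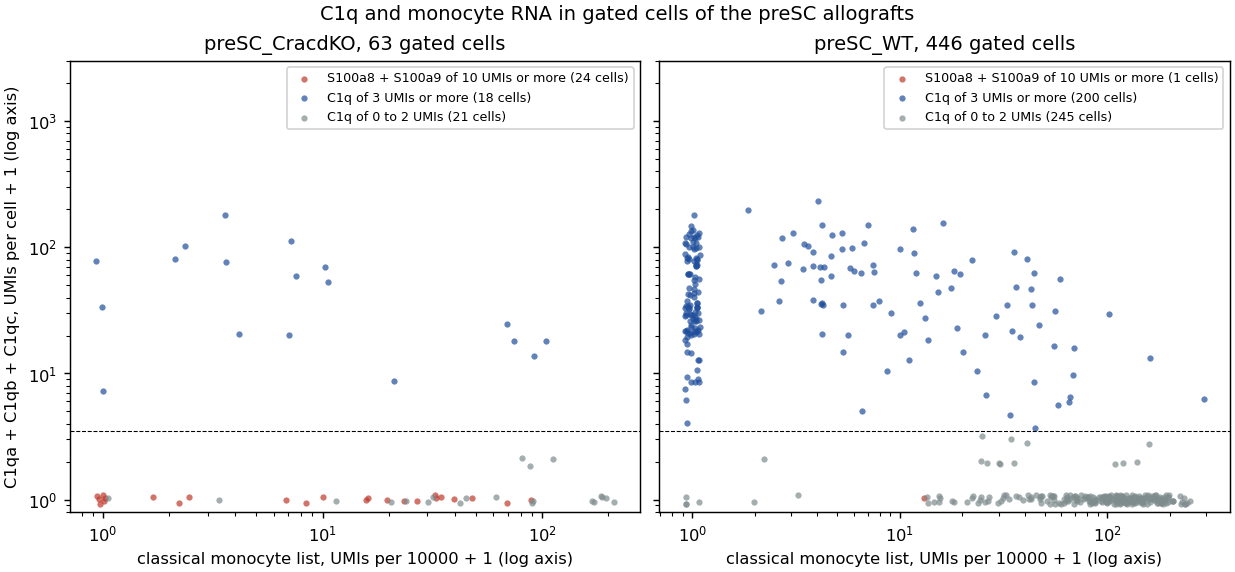
Each point is 1 member, labelled preSC_CracdKO on the left and preSC_WT on the right, with classical monocyte list UMIs per 10000 UMIs plus 1 on the horizontal axis and summed C1q UMIs plus 1 on the vertical axis, both logarithmic. The dashed line marks the 3-UMI limit of C1q-high cells, and the colours show 24 and 1 neutrophil-marked cells, 18 and 200 C1q-high cells and 21 and 245 further members.

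The 3 C1q genes lie side by side on chromosome 4 of mouse build mm10, all on the minus strand, with C1qb at chr4:136880129-136886187, C1qc at chr4:136889804-136893065 and C1qa at chr4:136895917-136898803 in the GENCODE annotation. Promoter windows of 300 bases around the annotated start, taken from RefSeq on GRCm38.p6, are shown for C1qb and C1qc. C1qa had no window in the set used. Lyz2, present in each member, and Ly6c2, a monocyte gene lower in C1q-high cells, are shown beside them. Capitals mark AGGAAGT or its reverse complement ACTTCCT, a sequence of the type that PU.1, the myeloid ETS factor encoded by Spi1, is known to bind. The windows, 5′ to 3′ on the gene's strand, are C1qb at chr4:136886151-136886450 (minus), C1qc at chr4:136892865-136893164 (minus), Lyz2 at chr10:117282223-117282522 (minus) and Ly6c2 at chr15:75111922-75112221 (minus).
C1qb: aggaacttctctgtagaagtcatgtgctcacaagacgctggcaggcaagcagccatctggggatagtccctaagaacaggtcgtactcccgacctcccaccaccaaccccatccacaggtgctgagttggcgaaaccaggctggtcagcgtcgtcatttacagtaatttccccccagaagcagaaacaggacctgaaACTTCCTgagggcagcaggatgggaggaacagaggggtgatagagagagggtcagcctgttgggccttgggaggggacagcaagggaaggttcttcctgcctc
C1qc: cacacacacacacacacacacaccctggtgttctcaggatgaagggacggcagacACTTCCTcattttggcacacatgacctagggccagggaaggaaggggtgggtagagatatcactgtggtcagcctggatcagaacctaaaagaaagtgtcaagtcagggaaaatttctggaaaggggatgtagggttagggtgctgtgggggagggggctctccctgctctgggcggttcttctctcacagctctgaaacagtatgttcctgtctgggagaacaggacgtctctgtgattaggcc
Lyz2: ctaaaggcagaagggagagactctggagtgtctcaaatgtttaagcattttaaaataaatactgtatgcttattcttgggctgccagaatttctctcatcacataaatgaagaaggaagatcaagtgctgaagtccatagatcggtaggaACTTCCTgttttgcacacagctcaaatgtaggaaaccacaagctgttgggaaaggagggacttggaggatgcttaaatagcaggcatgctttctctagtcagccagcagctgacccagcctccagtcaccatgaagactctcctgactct
Ly6c2: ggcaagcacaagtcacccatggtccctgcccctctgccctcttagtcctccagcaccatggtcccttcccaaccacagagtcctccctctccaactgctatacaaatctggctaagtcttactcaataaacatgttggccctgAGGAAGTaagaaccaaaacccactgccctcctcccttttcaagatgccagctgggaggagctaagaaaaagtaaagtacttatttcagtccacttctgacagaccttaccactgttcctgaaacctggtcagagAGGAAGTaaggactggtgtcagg
The C1qb, C1qc and Lyz2 windows each held 1 match and the Ly6c2 window 2, while the window of Ccr2 held 0. Of all 26742 promoter windows of that length, 2532 (9.47%) held at least 1 match. A match is a run of letters and not a measured binding site. Spi1 RNA itself was at 343 CPM in C1q-high and 420.4 CPM in C1q-zero cells of preSC_WT.

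The C1q-high and C1q-zero cells of the library labelled preSC_WT, 200 and 233 cells, differed by a macrophage programme of lipid, lysosome and antigen-presentation genes on one side and a monocyte programme on the other. A gene counts as higher or lower when its summed CPM differed by at least 2-fold with at least 20 CPM in the higher sum. Of 7401 genes tested, 830 (11.2%) were higher in C1q-high cells and 575 (7.77%) were lower, so that 59.1% of the called genes were higher. Scaling the sums to the median gene ratio instead gave 566 higher and 707 lower (44.5% higher), because the median log2 ratio of all tested genes was 0.14. With doublets removed 1445 genes were higher, 743 of them among the 830. Because the split was made on RNA of these same cells, the values below are a description. The 2 sums had similar depth, with medians of 2485.5 and 2149 UMIs per cell, and similar neuroendocrine list levels of 3641 and 4011 CPM.

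Genes for taking up and breaking down dead cells were higher in the C1q-high cells. Of the 10 phagocytosis receptor genes tested 6 were higher and none lower, Mertk at 153 against 4.52 CPM and Axl at 118 against 1.51 CPM, both receptors that recognise dying cells. Of 20 lysosome genes 13 were higher and none lower, and the list summed to 18747 CPM in C1q-high and 7768 CPM in C1q-zero cells. The median log2 ratio of the list, with 1 CPM added to each sum, was 1.40 against 0.14 over all tested genes. The proteases Ctsd (1551 against 203 CPM) and Ctsb (2622 against 607 CPM) and the endopeptidase Lgmn (925 against 188 CPM) were among them.

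Genes of lipid handling followed the same side. On the lipid-handling macrophage list 8 of 14 genes were higher and none lower, with a median log2 ratio of 2.13. Trem2, a lipid-sensing receptor, stood at 373 CPM in C1q-high and 66.3 CPM in C1q-zero cells, the membrane protein gene Gpnmb at 116 against 1.51 CPM, and the cholesterol exporter Abca1 at 231 against 36.2 CPM. Apoe was 28859.7 against 2575 CPM. Of 8 iron genes 4 were higher, with the iron exporter Slc40a1 at 30.9 against 3.01 CPM and the ferritin light chain Ftl1 at 7469 against 3679.7 CPM.

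Antigen presentation by MHC class II was also on the C1q-high side. Of 7 class II genes tested 5 were higher, with a median log2 ratio of 1.61, and the list summed to 23693 CPM in C1q-high and 7494 CPM in C1q-zero cells, a ratio of 3.16 (3.06 to 3.26). H2-Aa had UMIs in 180 of 200 C1q-high cells and in 65 of 233 C1q-zero cells. The 10 class I genes tested were within 2-fold in both directions. Of 10 genes induced by interferon gamma 8 were higher, whereas on the type I interferon list 2 of 18 were.

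Genes of chemokines and secreted factors lay on both sides. Of 17 chemokine ligand genes 7 were higher and 5 lower in C1q-high cells, with sums of 4660 and 4397 CPM. Of 13 growth factor and ligand genes 3 were higher and 4 lower, with sums of 2355 and 3632 CPM. The named genes on the higher side follow. Ccl8, a chemokine, had 338 UMIs in 30 C1q-high cells and 0 in C1q-zero cells. With 3 UMIs in place of the 0 it was 110-fold higher, and the lower 95% limit of the ratio was 89.1. Vcam1, an adhesion molecule, had 284 UMIs against 0 (92.5-fold in the same way, lower limit 74.8), and Igf1, a growth factor, 75 against 0. Cxcl9, a T-cell attractant, was at 533 against 27.1 CPM and Cxcl16 at 442 against 10.5 CPM. Il18bp, Adamdec1, Olfml3, Pdgfb and Spic, the last a transcription factor of iron-recycling macrophages, were likewise at 0 UMIs in C1q-zero cells. Gdf15, Hebp1 and Dnase1l3 had 1 UMI there against 159, 88 and 84.

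The C1q-zero cells, taken as a sum, held the monocyte genes. All 12 genes of the classical monocyte list were lower in C1q-high cells, with a median log2 ratio of -3.59, and the list summed to 878 CPM there against 8557 CPM in C1q-zero cells. Ly6c2, the Ly6C antigen, was at 39.8 against 523 CPM, Ccr2 at 88.4 against 560.5 CPM and Plac8 at 196 against 2224 CPM. Hp, haptoglobin, was 37.1-fold lower in C1q-high cells (21.5 to 70.3), and Chil3, a chitinase-like lectin, 26.3-fold lower (16.7 to 44.1). The C1q-zero cells were not uniform either. Without neutrophil-marked cells the monocyte list ran from 0 to 250 UMIs per 10000 (median 109). The class II list ran from 0 to 839 (median 5.90). A cell of 3051 UMIs, for example, held 8 monocyte list, 256 class II and 0 Apoe UMIs. Whether such cells are monocytes was not tested. A list of dendritic cell genes summed to 292 CPM in C1q-high and 234 CPM in C1q-zero cells, a ratio of 1.25 (1.01 to 1.55).

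Slpi (1 against 452 UMIs), Cd209a (0 against 40) and AI839979 (0 against 78) were further genes lower in C1q-high cells. So were Ifitm6, Mcemp1, Cd177, F10, Rgcc and Ifitm1. Of 10 S100 and alarmin genes 8 were lower in C1q-high cells, as were 8 of 16 inflammatory genes, with Il1b at 1124 against 2586 CPM. Cebpb, a transcription factor of the monocyte lineage, was at 320 against 1676 CPM. Genes that tissue dissociation is known to induce moved with this side, at 12766 CPM in C1q-high and 20707 CPM in C1q-zero cells with 5 of 17 lower and none higher, and their part in the differences was not tested.

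**Figure D2:**
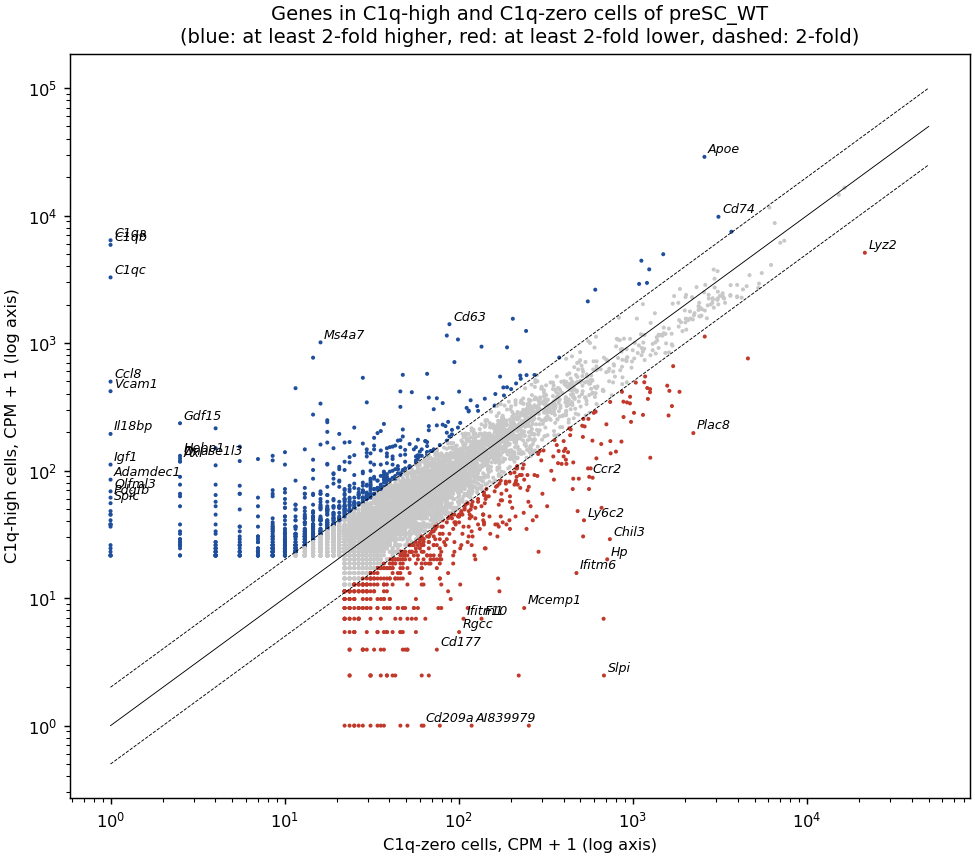
Each point is a gene of the library labelled preSC_WT, with its CPM plus 1 in 233 C1q-zero cells on the horizontal and in 200 C1q-high cells on the vertical axis, both logarithmic, and the named genes labelled. Ccl8, Vcam1 and Igf1 lie on the vertical axis at 0 UMIs in C1q-zero cells, while Slpi, Hp and Chil3 lie far below the diagonal.

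The library labelled preSC_CracdKO held 18 cells of each kind once neutrophil-marked cells were left out, short of the 20 set for a count over all genes within a library. Lists leaned to the same sides as in preSC_WT for monocyte genes (1451 CPM in C1q-high and 6354 CPM in C1q-zero cells), lysosome genes (16081 against 6961 CPM) and the resident-type macrophage list (4313 against 152 CPM). So did further lists, among them the lipid-handling macrophage list (16866.5 against 4473.9 CPM), interferon-gamma genes (345 against 106 CPM) and inflammatory genes (649 against 1213 CPM). Some other list sums were near equal or leaned the other way. MHC class II summed to 4738 CPM in C1q-high and 4368 CPM in C1q-zero cells, a ratio of 1.08 (0.941 to 1.25). That C1q-zero sum rested on few cells, with 192 and 88 class II UMIs in cells of 13694 and 1589 UMIs. Per cell the class II list had a median of 0 UMIs per 10000 in C1q-zero and 8.16 in C1q-high cells. S100 and alarmin genes summed to 7175 against 5520.3 CPM, growth factors and ligands to 3423 against 485 CPM and cell-cycle genes to 2453 against 2548 CPM, where preSC_WT had ratios of 0.466, 0.648 and 1.91. Cell-cycle genes were uneven between C1q-zero cells, with a median of 0 and a highest value of 79.6 UMIs per 10000. In C1q-high cells their median was 6.46.

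The C1q-high cells of preSC_WT were not uniform. At 2 or more UMIs, H2-Aa was found in 164 of the 200 cells, Vcam1 in 43, Cxcl9 in 28, Pf4 in 27, Mmp12 in 25, Ccl8 in 21, Mrc1 in 18, Mki67 in 15, Gpnmb in 14 and Retnla in 8. Pf4 and Mrc1, a chemokine and a mannose receptor, are genes of tissue-resident macrophages, and Mmp12 is the macrophage elastase. Of the 21 cells with Ccl8, 14 also held Pf4 (66.7% of the first and 51.9% of the second). Of the 25 cells with Mmp12, 16 also held Vcam1 (64.0% and 37.2%), while 1 held Pf4 and 1 held Mrc1. These counts rest on cells of 1 library whose depth runs between 514 and 36558 UMIs.

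Some of the high sums came from few cells. Retnla, a secreted factor of alternatively activated macrophages, had 777 UMIs in 9 cells, and 1 cell gave 45.7% of them. The cell with the most Cxcl9 gave 27.9% of its UMIs, and that with the most Ccl8 gave 25.4%. Mki67, a marker of proliferation, was detected in 35 of 200 C1q-high cells and in 15 of 233 C1q-zero cells, at 130 against 58.8 CPM, and 8 of 16 cell-cycle genes were higher in C1q-high cells.

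The next comparison sets the libraries beside each other, whose labelled genotype is that of the grafted cell line. Over all members, 63 labelled preSC_CracdKO and 446 labelled preSC_WT, 1049 of 7744 genes (13.5%) were higher in the first and 979 (12.6%) lower. In the barcodes outside the rule, 586 of 8253 genes (7.1%) were higher and 1243 (15.1%) lower in preSC_CracdKO. Among members the largest ratios were those of the neutrophil genes already described, S100a9 at 4090.2 against 36.2 CPM and S100a8 at 2664 against 24.2 CPM. Next came Arg1, the arginine-degrading enzyme of suppressive macrophages, at 433 against 6.40 CPM, and Spp1, the secreted protein osteopontin, at 1062 against 21.3 CPM. Lcn2, a neutrophil granule protein, was further down the list at 159 against 14.2 CPM.

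Many of the other named genes differed in the whole libraries as well. Cited1, Pde1a, Rtn1, Enah and Meis1 were higher, and Krt8, Cntnap5b, Skap1, Krtap17-1, Cdh1, Hspb1, Fam19a1, Egr4 and Cldn7 were at 0 UMIs, in the members labelled preSC_CracdKO. Krt8, an epithelial keratin, was at 15.5 CPM in tumour-marked barcodes labelled preSC_CracdKO and at 1986 CPM in those labelled preSC_WT. Slc2a3, a glucose transporter, and Cass4 were higher too. Cass4 turned lower without the neutrophil-marked cells (log2 ratio -0.65), and Cited1 turned lower without the cells that held tumour-marker RNA (-2.97). Plau, Lyz1 and Cxcl9 were at 0 UMIs in preSC_CracdKO members, against 80.3, 75.3 and 270.1 CPM in preSC_WT members.

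Without the neutrophil-marked cells, 1098 of 7974 genes (13.8%) were higher and 1248 (15.7%) lower in the 39 remaining members labelled preSC_CracdKO. Arg1 (579 against 6.40 CPM), Spp1 (1423 against 21.3 CPM) and Pf4 (1885 against 143 CPM) led the list. Next, by ratio, came Rtn1, Cd36, a scavenger receptor for lipids, Rnf150, Prps1, Hmox1, the haem-degrading enzyme, Slc30a7, Nnat, Nfib and Fabp5, a fatty acid carrier. Rtn1, Rnf150, Prps1, Nnat, Nfib and Fabp5 were also at least 2-fold higher outside the rule, Nnat at 11006.8 against 1864 CPM there and at 3246 against 665 CPM in the members. The named genes at 0 UMIs included Fosl2, Wfdc2, Igfbp5 and Gem beside Krt8, Cntnap5b, Skap1, Krtap17-1, Cdh1, Hspb1 and Fam19a1, and each of these was lower outside the rule too. Cxcl9 was again at 0 UMIs against 270.2 CPM.

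**Figure D3:**
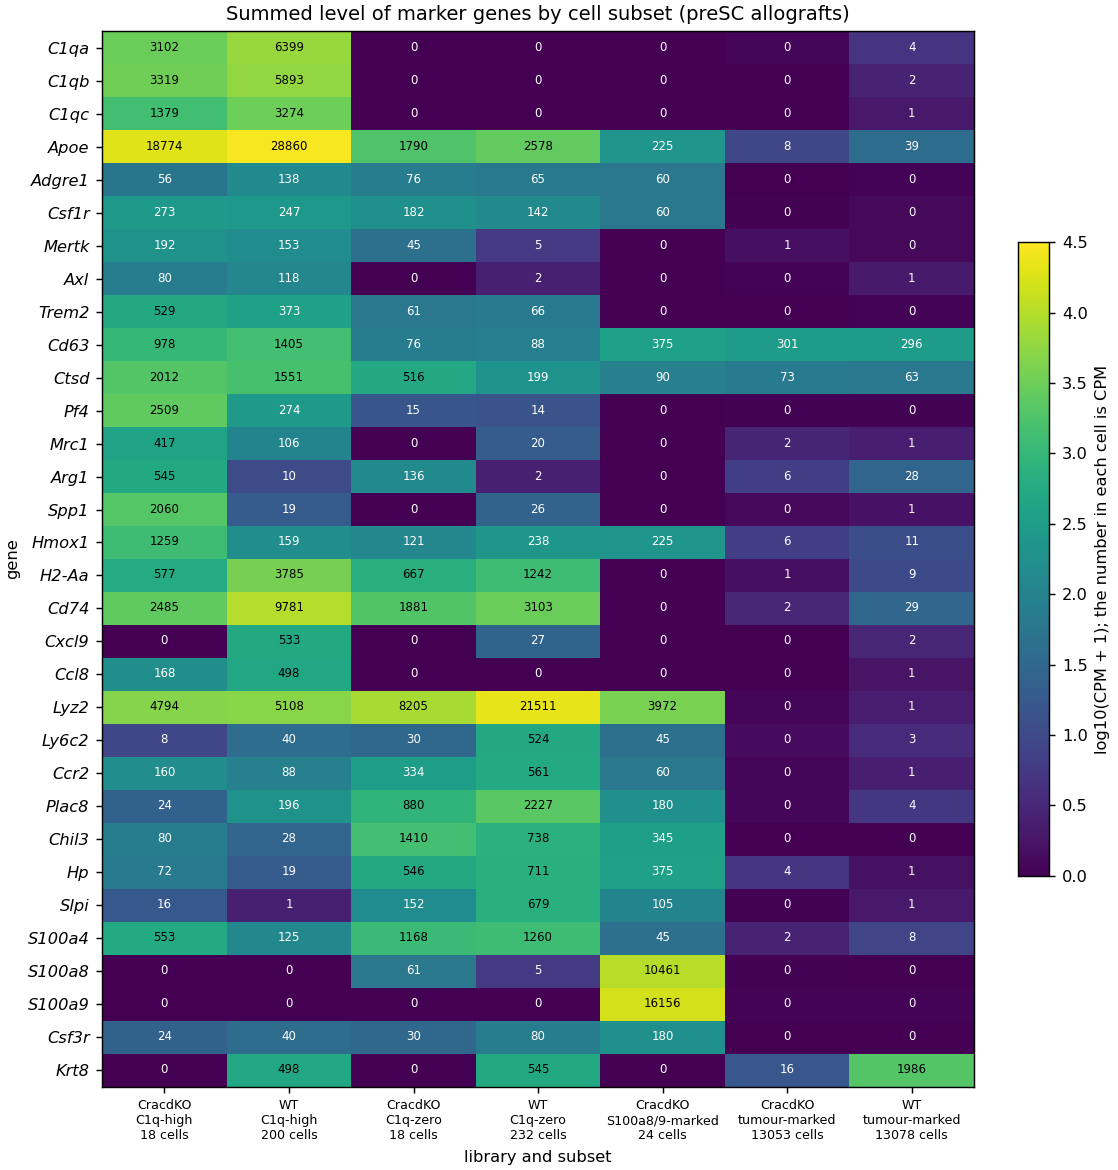
Rows are genes grouped by role, and columns are sums over cells of the libraries labelled preSC_CracdKO and preSC_WT, for C1q-high cells (18 and 200), C1q-zero cells without neutrophil-marked cells (18 and 232), neutrophil-marked cells (24, preSC_CracdKO) and tumour-marked barcodes (13053 and 13078). Colour and the printed number give CPM, and among these columns Arg1, Spp1 and Pf4 are highest in the first while H2-Aa, Cd74 and Cxcl9 are highest in the second.

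Within C1q-high cells the libraries differed in the kind of macrophage genes they carried. The 18 cells labelled preSC_CracdKO had more RNA of resident-type genes and of Arg1, Spp1 and Hmox1, and the 200 labelled preSC_WT more of MHC class II, interferon-gamma and inflammatory genes. Of 7880 genes tested, 1062 (13.5%) were higher in preSC_CracdKO and 1729 (21.9%) lower. The 18 cells were fewer than the 20 set for a count over all genes within a library, so these counts are a description only. The sums held 124744 UMIs in preSC_CracdKO and 678974 in preSC_WT, and 3 UMIs stood for 24.0 and 4.42 CPM, so that a call near 20 CPM in preSC_CracdKO can rest on fewer than 3 UMIs. The cells labelled preSC_CracdKO were also deeper, with medians of 6206 and 2486 UMIs.

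Of the 9 resident-type genes tested, 7 were higher in C1q-high cells labelled preSC_CracdKO and none lower. The list's median log2 ratio was 1.66, against -0.06 over all tested genes, with sums of 4313 and 1053 CPM. Pf4 stood at 2509 CPM (2239 to 2803) in 14 of 18 cells labelled preSC_CracdKO and at 274 CPM (236 to 316) in 56 of 200 labelled preSC_WT, a ratio of 9.16 (7.62 to 11.04), although 1 cell gave 43.1% of the preSC_CracdKO UMIs. Mrc1 stood at 417 against 106 CPM, 3.93-fold higher (2.70 to 5.69), in 12 of 18 cells against 44 of 200. Stab1, a scavenger receptor, was at 192 against 69.2 CPM. In tumour-marked barcodes the same list was also higher in preSC_CracdKO, at 90.1 against 10.8 CPM, of which Selenop and Maf made up most, while Pf4 was at 0.0503 and 0.0729 CPM there.

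Arg1 stood at 545 CPM (423 to 691) in 10 of 18 cells labelled preSC_CracdKO and at 10.3 CPM (4.15 to 21.2) in 7 of 200 labelled preSC_WT, a ratio of 52.9 (24.3 to 136). After thinning to 1000 UMIs it was detected in 27.8% of the first and 0% of 170 of the second. Tumour-marked barcodes leaned the other way, at 5.86 against 28.5 CPM. One cell gave 38.2% of the Arg1 UMIs of these 18 cells. Arg1 was not confined to them. Of the 114 Arg1 UMIs in the members labelled preSC_CracdKO, 68 lay in C1q-high cells, 37 in 1 cell with 1 or 2 C1q UMIs and 9 in C1q-zero cells. Of the 13 alternative activation genes tested 6 were higher and 3 lower, beside 13.5% and 21.9% of all tested genes. The 3 lower genes included Retnla at 16.0 against 1144 CPM.

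Spp1 stood at 2060.2 CPM (1816 to 2328) in 8 of 18 cells labelled preSC_CracdKO and at 19.1 CPM in 9 of 200 labelled preSC_WT, a ratio of 108 (61.8 to 205). One cell gave 45.9% of these UMIs, and tumour-marked barcodes held 0.252 and 0.632 CPM. Hmox1 stood at 1259 against 159 CPM, 7.91-fold higher (6.15 to 10.2), in 12 of 18 cells against 51 of 200. On the iron and haem list as a whole 3 of 9 genes were higher and 1 lower, with sums of 26646.6 and 19648.8 CPM. Of all tested genes 13.5% were higher and 21.9% lower. Haemoglobin genes were higher too, the erythroid list summing to 505 CPM in preSC_CracdKO and 8.84 CPM in preSC_WT C1q-high cells, and to 405 and 275 CPM in tumour-marked barcodes. The sum of 505 CPM leaned on few cells, with a median of 0.366 and a highest value of 72.9 UMIs per 10000 in the 18 cells. The part of haemoglobin RNA in the Hmox1 difference was not tested.

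Further genes higher in preSC_CracdKO C1q-high cells were F13a1, a coagulation factor subunit of resident-type macrophages (289 against 29.5 CPM), Lgals1, galectin-1 (1371 against 333 CPM), Ahnak, Emilin2, Hip1, Wwp1, Xdh, Gda and Rnf150, the last also higher outside the rule. Fabp5 (4794 against 1245 CPM), Gpnmb (417 against 116 CPM) and Ccl24, an eosinophil-attracting chemokine (1170.4 against 22.1 CPM), rested on 1 cell for 59.2%, 63.5% and 87.7% of their preSC_CracdKO UMIs. Fabp5 was also higher in tumour-marked barcodes, at 767 against 375 CPM.

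MHC class II was lower in C1q-high cells labelled preSC_CracdKO. Of 7 genes tested 5 were lower and none higher, with a median log2 ratio of -1.98. The list summed to 4738 CPM in preSC_CracdKO and 23693 CPM in preSC_WT, a ratio of 0.200 (0.184 to 0.217). H2-Aa stood at 577 CPM (452 to 727) in 8 of 18 cells (44.4%) labelled preSC_CracdKO and at 3785 CPM (3640 to 3934) in 180 of 200 (90.0%) labelled preSC_WT, and after thinning in 27.8% and 78.2% of cells. Cd74, the class II chaperone, stood at 2485 against 9781 CPM. In tumour-marked barcodes H2-Aa had UMIs in 0.192% of preSC_CracdKO and 2.00% of preSC_WT barcodes, and the class II list summed to 4.96 and 63.2 CPM.

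Per cell the class II list held a median of 8.16 UMIs per 10000 (0 to 196) in the 18 C1q-high cells labelled preSC_CracdKO and of 239 (0 to 1053) in the 200 labelled preSC_WT. The ranges overlapped. Class I genes were lower as well, with 6 of 10 lower and sums of 1467 against 5573 CPM, and in tumour-marked barcodes these genes were at 240.4 against 1134 CPM.

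Of the 11 interferon-gamma genes tested 8 were lower and 1 higher in C1q-high cells labelled preSC_CracdKO, with a median log2 ratio of -1.82 and sums of 345 and 1193 CPM, and in tumour-marked barcodes the list was at 18.0 against 64.9 CPM. Cxcl9 had 0 UMIs in 18 cells labelled preSC_CracdKO and stood at 533 CPM in 38 of 200 cells labelled preSC_WT. With 3 UMIs (24.0 CPM) in place of the 0 it was 22.2-fold lower. Of 14 inflammatory genes 12 were lower and none higher, with a median log2 ratio of -2.28 and sums of 649 and 3984 CPM. Il1b stood at 64.1 against 1124 CPM and Ccl4, a chemokine, at 72.2 against 1053 CPM, while in tumour-marked barcodes the list was at 215 against 418 CPM. Il1a and Plau were at 0 UMIs in preSC_CracdKO. So were Nr4a1, Epcam, Krt8, Wfdc2, Igfbp5, Piezo2, Cdh13, Pcsk1 and Gem, which are genes of the tumour cells or differ there in the same direction.

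Dissociation-linked genes moved with these lists. They summed to 2966 CPM in preSC_CracdKO and 12766 CPM in preSC_WT C1q-high cells, 14 of 17 lower, and to 3769 and 22129.6 CPM in tumour-marked barcodes. Hypoxia and glycolysis genes went the other way in both, at 8201 against 3728 CPM in C1q-high cells (6 of 13 higher) and at 9130.4 against 3072 CPM in tumour-marked barcodes. These shifts are shared by the whole libraries, and their part in the inflammatory and class II differences was not tested.

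The lysosome list had a median log2 ratio of -0.15, with sums of 16081 CPM in preSC_CracdKO and 18747 CPM in preSC_WT. Of its 20 genes 5 were lower, beside 21.9% lower of all tested genes. Ctss, the protease that processes the class II chaperone, was one of the 5, at 1130.3 against 2909 CPM. Of 16 genes of actin and its capping 1 was higher and 1 lower, and 6 of 16 cell-cycle genes were higher. Of all tested genes 13.5% were higher.

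**Figure D4:**
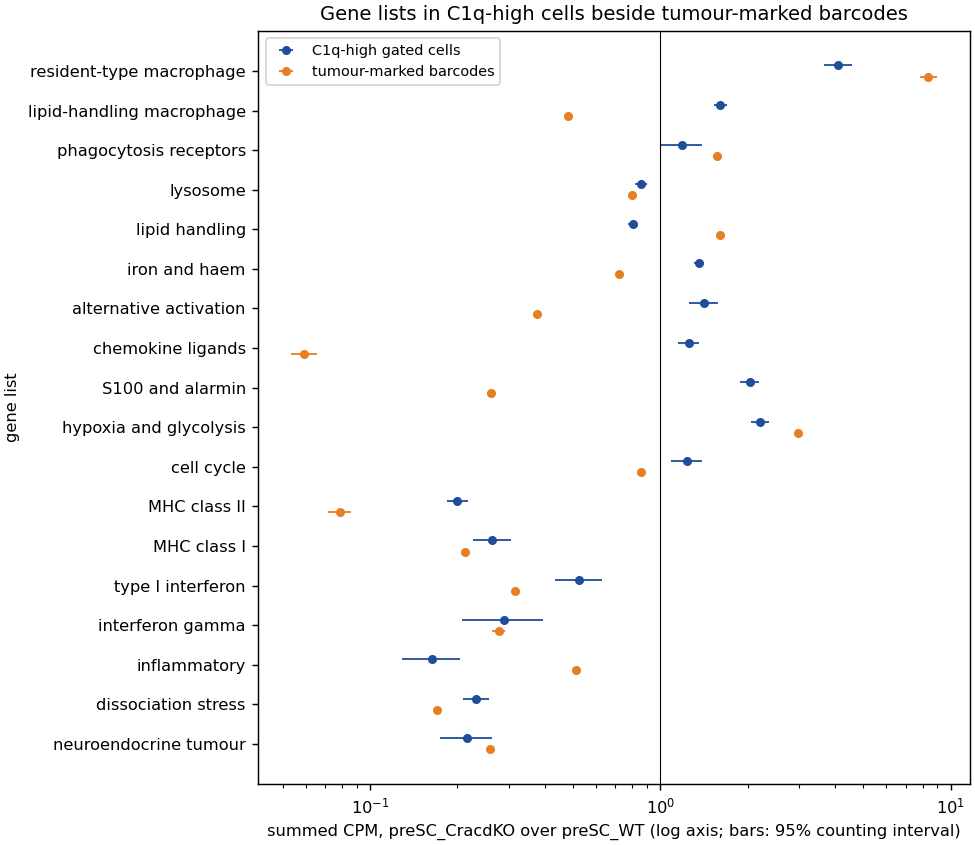
Each row is a gene list, with the ratio of summed CPM, preSC_CracdKO over preSC_WT, on a logarithmic axis for C1q-high cells (blue) and tumour-marked barcodes (orange), and bars for 95% counting intervals. Class II, class I, inflammatory and dissociation-linked genes lie below 1 in both, the resident-type list and hypoxia and glycolysis genes lie above 1 in both, and the lipid-handling macrophage and alternative activation lists lie above 1 in C1q-high cells and below 1 in tumour-marked barcodes.

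The C1q-zero members without neutrophil-marked cells, 18 labelled preSC_CracdKO and 232 labelled preSC_WT, were compared in the same way. Of 7737 genes, 2181 (28.2%) were higher and 1439 (18.6%) lower in preSC_CracdKO. Here too the 18 cells were fewer than the 20 set for a count over all genes within a library. The smaller sum held 65938 UMIs and 3 UMIs stood for 45.5 CPM in it, so that a call near 20 CPM there can rest on 2 UMIs. Of the named genes that were higher, Prkcb, Cmss1, Atp5o, Cdk8, Cox7b, Cct5, Gapdh and Retreg1 were also at least 2-fold higher outside the rule, and Camk1d, Zfp292, Apbb1ip and Gpr141 were not. Cmss1 was at 3882 against 928 CPM here and at 2128 against 788 CPM in tumour-marked barcodes, while Gpr141 was at 212 against 78.5 CPM here and at 0.123 against 0.134 CPM outside the rule. Of 15 inflammatory genes 13 were lower and none higher, with Ccl4 at 0 against 842 CPM and Osm, a cytokine, at 0 against 275 CPM. Further named genes at 0 UMIs were Krt8, Wfdc2, Igfbp5, Hspb1, Cntnap5b, Nr4a2 and Fosl2, at least 2-fold lower outside the rule too, and Ddx1 and Uqcrfs1, which were not. Dissociation-linked genes were lower in 16 of 17 cases. Classical monocyte genes summed to 6354 CPM in preSC_CracdKO and 8566 CPM in preSC_WT, with Ly6c2 at 30.3 against 524 CPM and Chil3 at 1410.4 against 738 CPM.

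The lung pair, which shares no library with the allografts, shows the same genes in C1q-high cells of other tumours. Arg1 stood at 255 CPM (212 to 304) in 109 cells of CRPR2 and at 47.0 CPM (21.5 to 89.2) in 35 cells of RPR2. Spp1 stood at 2142 against 209 CPM and Gpnmb at 425 against 345 CPM. Pf4, at 279 against 183 CPM, and Hmox1, at 96.5 against 115 CPM, lay nearer to the preSC_WT than to the preSC_CracdKO values. H2-Aa was at 2721 against 2079 CPM, Cd74 at 10363 against 9621 CPM. The labels do not say whether Cracd differs between CRPR2 and RPR2, so the pairs are set side by side and not combined.

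**Figure D5:**
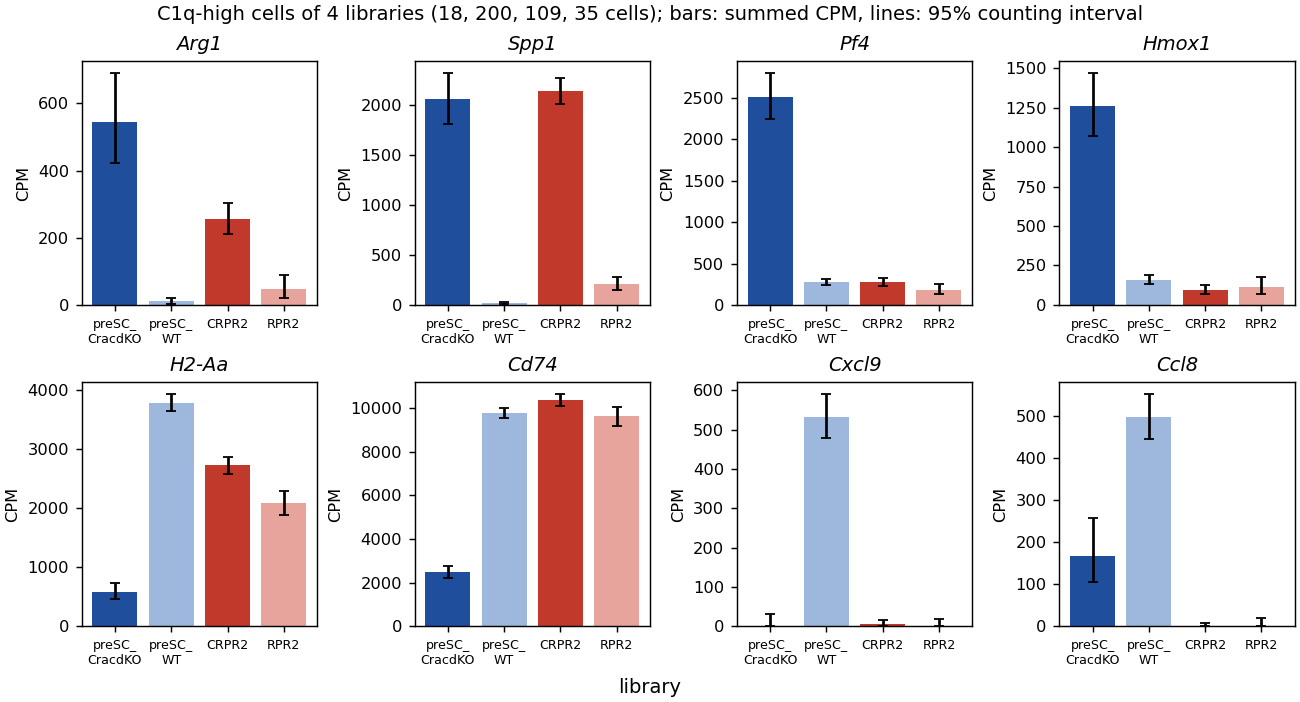
Bars give CPM summed over C1q-high cells of preSC_CracdKO (18), preSC_WT (200), CRPR2 (109) and RPR2 (35), with 95% counting intervals, for 8 genes on separate axes that start at 0. Pf4 and Hmox1 are highest in preSC_CracdKO, Spp1 is high in preSC_CracdKO and CRPR2, and Cxcl9 and Ccl8 are highest in preSC_WT.

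C1q-high cells were 28.6% of the members in preSC_CracdKO and 44.8% in preSC_WT, against 25.8% (21.7 to 30.2%) in CRPR2 and 17.2% (12.3 to 23.0%) in RPR2. Without neutrophil-marked cells the shares were 46.2% in preSC_CracdKO and 44.9% in preSC_WT, against 27.7% (23.4 to 32.4%) in CRPR2 and 17.9% (12.8 to 23.9%) in RPR2. The intervals of preSC_CracdKO and CRPR2 overlapped in both. Set against the lung tumours, 1281 of 7282 genes (17.6%) were higher in the summed allograft members and 325 (4.46%) lower, so that 79.8% of the called genes were higher. Scaling to the median gene ratio gave 1009 higher and 459 lower (68.7% higher), with a median log2 ratio of 0.18 before scaling. Ccl8 had 359 UMIs in allograft and 0 in lung members, Adamdec1, a metalloprotease-like gene, 119 against 0, and Lrmda 707 against 4. Of the 119 Adamdec1 UMIs, 57 lay in C1q-high cells of preSC_WT. The neutrophil-marked cells labelled preSC_CracdKO had 839 CPM of Adamdec1, so its sum is not one of macrophages and monocytes alone. Kcnd2, Grm7, Gria4, Astn2, Adarb2, Hs6st3, Adgrb3, Nell1 and Tmeff2 completed the list and were present in the barcodes outside the rule too. In C1q-high cells alone Cntnap2, Grip1, Dpp10 and Tmtc2 joined them, also present outside the rule.

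The genes lower in the allografts began with airway secretory products, Scgb1a1 at 2 against 11144 UMIs, Scgb3a2 and Scgb3a1. Ctsk, a protease of osteoclasts and of some lung macrophages, had 1 UMI in allograft and 1161 in lung members, Apoc2 0 against 339, and Plet1, Tnfsf13, Krt19, Mrpl53 and Rgs4 were at 0 UMIs in the allografts. In C1q-high cells alone Pla2g2d, Colec12 and Fam89b were at 0 UMIs there as well. Rnasek and Atp6v0c had 5 against 1067 and 11 against 2194 UMIs. Mmp12 in C1q-high cells was at 104 CPM in preSC_CracdKO and 214 CPM in preSC_WT, against 1861 CPM in CRPR2 and 1139 CPM in RPR2. On the type I interferon list 12 of 17 genes were higher in allograft C1q-high cells and 1 lower, with a median log2 ratio of 1.20, beside 19.8% higher and 6.32% lower of 7425 genes and a median of 0.20. Tissue, library and the version of the counting software differ together between the pairs and cannot be told apart.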

How the data were processed

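Single-cell 3′ RNA sequencing gave 4 mouse tumour libraries, made with a Chromium 3′ v3.1 kit after enzymatic digestion, red-cell lysis and dead-cell removal, per the labels' protocols. The values deposited by the authors are UMI counts, whole numbers for each gene in each barcode. Per the file headers the allograft matrices were made with Cell Ranger 5.0.0 (31053 features) and the lung matrices with Cell Ranger 6.1.2 (32285 features), of which 30406 are shared. The submitters' processing notes list Cell Ranger 6.1.2, Scanpy 1.8.2, Seurat 1.8.2 and build mm10, with the annotation release and the cell-calling settings not given in the sources used here. The libraries labelled preSC_CracdKO and preSC_WT and the lung libraries CRPR2 and RPR2 held 110576113, 93376185, 61917754 and 42592323 UMIs in 16282, 18559, 12164 and 9215 barcodes, of which 16137, 18468, 11962 and 9128 passed the filters.

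The members and the 40 gene lists (408 of 409 genes found) were chosen with earlier results of these data known. UMIs were summed over the cells of a library and divided by the summed total (CPM), with exact Poisson 95% intervals, exact conditional binomial intervals for ratios and Clopper-Pearson intervals for shares. Log2 ratios had 1 CPM added, and a gene counted as called at 2-fold with 20 CPM in the higher sum. Against a sum of 0, a fold was computed at 3 UMIs for the whole sum. Beside the list members, the text names for each comparison the 12 called genes with the largest ratio in each direction among those with 50 CPM and 10 cells with a UMI in the higher sum, leaving out genes of the rule and mitochondrial, ribosomal, haemoglobin, Gm and Rik genes. Sex-linked genes are given apart, and 2 genes that the rule names are not reported here.

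For thinned shares of cells, cells under 1000 UMIs were left out and the others were thinned to 1000 UMIs. Doublets marked by Scrublet (scanpy 1.11.5) were kept, and leaving them out was an alternative. Its own threshold marked no barcode in preSC_CracdKO and CRPR2, where a rate of 0.8% per 1000 barcodes was used in its place, and 1.93% in preSC_WT and 2.84% in RPR2. Python 3.11.15, numpy 2.4.6, scipy 1.17.1 and pandas 2.3.3 were used, and the calls were tested on simulated data. Alternatives changed the Lyz2 and C1q limits, the mitochondrial and CPM filters, the scaling, the added constant, the weighting of cells, doublets and neutrophil-marked cells.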

Additional observations from a re-analysis of the deposited data

Results flagged for a closer look

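Of 23 genes named for preSC_CracdKO over preSC_WT members, 14 had a CRPR2 over RPR2 ratio of opposite sign. In 4 of them both ratios were at least 2-fold with 20 CPM or more in 1 of the lung libraries, and only these are described here. The difference between the pairs was not tested. Hspb1, a small heat-shock protein gene, stood at 236 CPM in CRPR2 and 67.1 CPM in RPR2 members, a log2 ratio of 1.80, but at 0 UMIs in preSC_CracdKO against 102 CPM in preSC_WT members. Krt8, the epithelial keratin, stood at 535 and 264 CPM in CRPR2 and RPR2, a log2 ratio of 1.02, but at 0 UMIs against 556 CPM in the allografts. Krt8 is on the neuroendocrine list, of which 96 of 423 CRPR2 and 17 of 204 RPR2 members held at least 10 UMIs. The part of tumour-cell RNA in its difference was not tested. Krtap17-1 stood at 25.5 and 8.27 CPM, a log2 ratio of 1.52, but at 0 UMIs against 105 CPM.

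Lcn2, the neutrophil granule protein gene, went the other way. It stood at 77.7 CPM in CRPR2 and 293 CPM in RPR2 members, a log2 ratio of -1.90, but at 159 CPM in preSC_CracdKO and 14.2 CPM in preSC_WT members.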

How the results depend on the processing

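No paired analysis was possible because each group has 1 library. Leaving out cells with tumour-marker RNA and using C1q-high cells alone were chosen after seeing the data. Members were 0.390% of barcodes in preSC_CracdKO and 2.41% in preSC_WT. A limit of 1 Lyz2 UMI gave 0.527% and 3.09%, thinning to 1000 UMIs gave 0.215% and 1.90%, a limit of 5 UMIs gave 2.11% in preSC_WT, and leaving out cells with tumour-marker RNA gave 2.06% there. The C1q-high share was 46.2% in preSC_CracdKO without neutrophil-marked cells, and in preSC_WT 51.1% at 1 Lyz2 UMI, 39.6% at 5 and 38.3% thinned. A filter of 5 CPM tested more genes and gave, as higher and lower counts, 1861 and 1158 for C1q-high over C1q-zero cells, 2080 and 1931 for preSC_CracdKO over preSC_WT and 2291 and 802 for allografts over lung tumours. A filter of 50 CPM tested fewer and gave 378 and 332, 430 and 495, and 625 and 155. With doublets removed, 1445 genes were higher in C1q-high cells, 743 of them among the 830. In C1q-high cells alone 1729 genes were lower in preSC_CracdKO, and 38.1% of the called genes were higher against 51.7% over all members. Among named genes, Cass4 turned to a log2 ratio of -0.65 without neutrophil-marked cells and Cited1 to -2.97 without cells holding tumour-marker RNA. Beyond the CPM filters the cause was not tested. Over all alternatives 332 values lay near the main one, 44 moved and 2 reversed. Only single genes could reverse, because shares and counts of genes have no direction. Those genes were picked for their large ratios in these same data, so the tally says little about other genes. Depth limits the 18 C1q-high cells labelled preSC_CracdKO, where sums under 24.0 CPM rest on fewer than 3 UMIs.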

Other observations

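The class II gene H2-Eb1 departed from its neighbours in the C1q-high cells of RPR2. It stood at 625 CPM in 8 of 18 cells labelled preSC_CracdKO and at 4427 CPM in 180 of 200 labelled preSC_WT, and at 2214 CPM in 81 of 109 cells of CRPR2 and 31.3 CPM in 3 of 35 cells of RPR2. In those 35 RPR2 cells the class II genes H2-Aa and H2-Ab1 stood at 2079 and 3269.8 CPM. Outside the rule H2-Eb1 was at 107 CPM in CRPR2 and 7.01 CPM in RPR2.

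Myeloid transcription factor genes were mostly lower in C1q-high cells labelled preSC_CracdKO than in those labelled preSC_WT, 11 of 19 lower and 1 higher with a median log2 ratio of -1.10, beside 21.9% lower of all genes. In tumour-marked barcodes the list was lower too, at 453 against 1301 CPM. Cebpb stood at 72.2 against 320 CPM and Nr1h3, which encodes the cholesterol sensor LXR-alpha, at 8.02 against 63.3 CPM. S100 and alarmin genes lay on the other side, with 4 of 8 higher and none lower, S100a4 at 553 against 125 CPM and S100a6 at 898 against 270 CPM, while in tumour-marked barcodes the list summed to 77.2 against 296 CPM. Cd86, a costimulatory ligand for T cells, stood at 80.2 against 343 CPM.

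The 24 neutrophil-marked cells labelled preSC_CracdKO held RNA of several secreted factors, mostly in the 19 with up to 5000 UMIs. Cxcl2, a neutrophil-attracting chemokine, stood at 6939 CPM, the cytokine Il1b at 1619 CPM and its antagonist Il1rn at 644 CPM. Adamdec1 stood at 839 CPM in these cells, against 48.1 CPM in the C1q-high cells of the same library and 84.0 CPM in those of preSC_WT.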
